A study of Mus musculus with 20 samples.

Results

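The 33 genes described here carry glucose into brain cells, break it down to pyruvate and lactate, and send pyruvate into the mitochondrion. They were chosen by name for these roles from the 22048 genes counted, and comprise 2 glucose transporters, 2 monocarboxylate transporters, 6 genes of upper glycolysis, 2 glycolytic regulators, 8 genes of lower glycolysis, 2 lactate dehydrogenase subunits, 3 subunits of pyruvate dehydrogenase, 3 of its kinases, 3 genes of mitochondrial pyruvate entry and carboxylation, and 2 glycogen enzymes. RNA-seq was performed on the arcuate nucleus (ARC), a hypothalamic nucleus that controls feeding, cut out whole by laser capture from male C57BL6/J mice, given in the labels as 10 weeks old. The mice drank either vehicle, which was 1% ethanol, or corticosterone (Cort), the main glucocorticoid of rodents, at 75 µg/ml in the same 1% ethanol. The 2 day and the 4 week dataset each held 5 vehicle and 5 Cort samples, and all mice were culled by CO2. Those of the 4 week dataset, vehicle and Cort alike, were fasted for 16 h and refed for 24 h before culling, with treatment continued. Time therefore cannot be told apart from the fast and refeed, or from the sequencer, which was a HiSeq4000 at 2 days and a HiSeq2500 at 4 weeks. Samples keep the names C01 to C10 of the raw count tables in each dataset. The headers of the normalized 2 day table give 4 of the 7 samples kept the other treatment, so every 2 day comparison rests on the names of the raw table.

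In each dataset the study left out 2 vehicle samples and 1 Cort sample as outliers, so the main comparisons hold 3 vehicle and 4 Cort samples. At 2 days these were vehicle C07 and C09 and Cort C08, and at 4 weeks vehicle C01 and C05 and Cort C06. Levels are given as CPM, the counts of a gene scaled to library size. The 2 day libraries held between 2487063 and 5748223 counts and the 4 week libraries between 1065776 and 5196364. A floor of 3 counts equaled 0.522 to 1.21 CPM in the former and 0.577 to 2.81 CPM in the latter. Of a list of glucocorticoid-induced genes, 11 of the 13 tested at 2 days had a higher fitted level with Cort, against 52.1% of all genes. Their median log2 fold change was 0.90. At 4 weeks 10 of 12 were higher, against 51.9%, with a median of 1.23. In each dataset 1 gene of the list passed *P*adj < 0.1 in edgeR. That list was written with earlier results of these data known. It holds genes that the study reported as changed, so it is no independent check of the response.

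Glycolysis converts a molecule of glucose into pyruvate in the cytosol. Hexokinase traps glucose as its phosphate, phosphofructokinase commits it to breakdown, and pyruvate kinase yields pyruvate, which lactate dehydrogenase exchanges with lactate or pyruvate dehydrogenase converts to acetyl-CoA inside mitochondria. In brain, GLUT1 (*Slc2a1*) is the transporter of the blood-brain barrier and of astrocytes, and GLUT3 (*Slc2a3*) is that of neurons. Glucocorticoids are known to lower glucose uptake in several peripheral tissues and to induce pyruvate dehydrogenase kinase in muscle and liver.

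Sequences of 2 kinds bear on the values below. *Gapdh* was the normalizer of the qRT-PCR in the study, and its primers are shown because many other mouse genes hold the same bases. The bases are in lower case throughout.

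Gapdh forward primer: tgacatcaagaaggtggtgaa
Gapdh reverse primer: ccctgttgctgtagccgtattc

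The forward primer, of 21 bases, matched transcripts of 120 other genes of GENCODE M21 exactly, and the reverse primer, of 22 bases, matched 66. Both primers stood in 48 genes, *Gapdh* itself among them, and 45 of these were annotated as pseudogenes, which are copies of the mRNA elsewhere in the genome. On the *Gapdh* transcripts that held both primers, the product was 203 to 313 bases long.

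Promoter windows from 250 bases before to 50 bases after each RefSeq start were available for 31 of the 33 genes, as 48 windows. The motifs looked for on both strands were ACGTG, the core that hypoxia-inducible factors bind, CACGTG, the E-box bound by MYC, USF and ChREBP and their partners, and AGAACA, a hexamer of the glucocorticoid response element. Every CACGTG also holds ACGTG on each strand. ACGTG stood in 22 of the 48 windows (45.8%), against 19.6% of all 32851 mouse windows. CACGTG stood in 7 windows (14.6%, against 7.15%), and AGAACA in 8 (16.7%, against 19.0%). The members' windows had a median of 20 CG dinucleotides, against 7 over all windows, and ACGTG contains CG. A match is only a run of letters and not a bound site. A window each of *Ldha* and *Slc2a1* is shown from GRCm38.p6. The *Ldha* window had the most matches of any member, and *Slc2a1* encodes the transporter with which the results open. The other window of *Ldha*, chr7:46846832-46847131, held no match of any motif and is not shown. Capitals mark ACGTG and CACGTG on either strand.

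Ldha, chr7:46845554-46845853, plus strand: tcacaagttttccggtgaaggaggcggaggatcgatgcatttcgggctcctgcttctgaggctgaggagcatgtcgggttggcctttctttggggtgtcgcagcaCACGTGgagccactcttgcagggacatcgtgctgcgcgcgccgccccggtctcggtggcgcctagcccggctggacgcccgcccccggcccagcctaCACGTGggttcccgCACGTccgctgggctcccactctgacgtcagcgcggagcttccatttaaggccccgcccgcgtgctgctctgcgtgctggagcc
Slc2a1, chr4:119108495-119108794, plus strand: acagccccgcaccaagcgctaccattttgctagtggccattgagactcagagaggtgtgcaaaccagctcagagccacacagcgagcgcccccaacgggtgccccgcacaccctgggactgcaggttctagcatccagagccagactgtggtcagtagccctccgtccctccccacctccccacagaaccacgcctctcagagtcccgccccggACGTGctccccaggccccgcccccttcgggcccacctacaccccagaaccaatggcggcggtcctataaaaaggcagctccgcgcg

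In the ARC of vehicle mice the pathway was read over a wide range of levels. Per kilobase of exon, aldolase A (*Aldoa*) was the most abundant member in both datasets, at 222.1 ± 25.4 CPM per kb at 2 days and 145.4 ± 18.1 at 4 weeks (SD, n = 3). *Eno2*, the neuronal enolase, and *Ldhb*, the lactate dehydrogenase subunit favored by oxidative tissue, followed at 110.3 ± 14.4 and 109.2 ± 5.83 CPM per kb at 2 days, and their samples overlapped. *Ldha*, *Pkm*, *Tpi1* and *Pygb* came next at 63.1, 62.7, 61.2 and 48.4 CPM per kb, each overlapping the next, and *Aldoa*, *Ldhb*, *Pfkm* and *Pdhb* were among the members whose samples did not overlap those of the gene ranked next. The lowest members at 2 days were *Hk2* at 0.886 and *Mpc1* at 0.839 CPM per kb, and *Mpc1* lay below the filter on low counts in both datasets. The order of the 33 levels was much alike at 2 days and 4 weeks (Spearman's rho across the genes 0.954), which describes these genes and is not a test, as they share libraries and lengths. Ranks depend on the length used, which was that of all annotated exons of a gene, 1570 bases for *Ldhb* and 3310 for *Ldha*. Before division by length *Ldha* was above *Ldhb* in vehicle samples at 2 days, at means of 208.7 and 171.5 CPM.

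**Figure D1:**
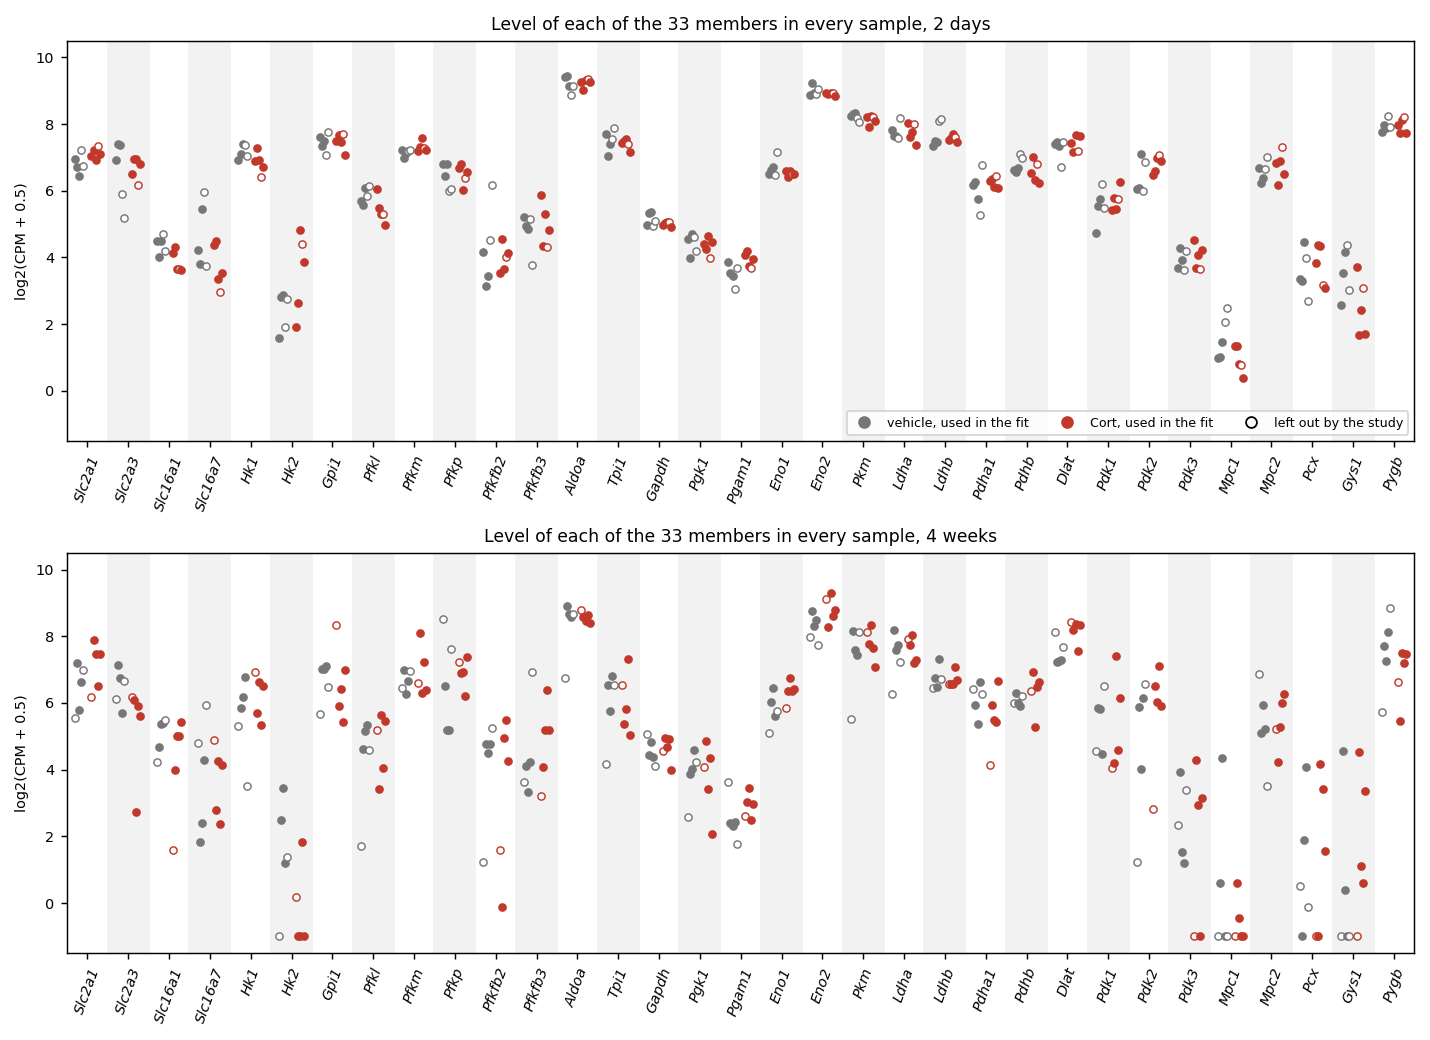
Level of each member in every sample, as log2(CPM + 0.5), at 2 days (top) and 4 weeks (bottom). Gray points are vehicle and red points Cort samples, and open points are samples left out by the study. *Aldoa* and *Eno2* are highest and *Mpc1* lowest at 2 days, and points scatter more widely at 4 weeks, where *Hk2*, *Pdk3*, *Mpc1*, *Pcx* and *Gys1* are at 0 counts in some samples.

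*Gapdh*, the glyceraldehyde-3-phosphate dehydrogenase, ranked 20 of 33 at 2 days, at 8.98 ± 1.33 CPM per kb over 4133 bases of annotated exon, with *Pgk1* at 9.48 and *Pgam1* at 6.01. Parts of these sequences also stand in other annotated genes. Of the 50-base stretches of the coding transcripts, the read length used, 68.0% of those of *Pgk1*, 58.4% of *Gapdh*, 49.5% of *Eno1* and 41.5% of *Pgam1* also stood in another annotated gene. For *Gapdh* the stretches were found in 223 other genes, of which 215 were pseudogenes. The shares were 30.3% for *Pdhb*, 26.8% for *Mpc1*, 25.0% for *Pfkfb2*, 24.5% for *Gpi1*, 23.7% for *Pkm* and 21% for *Ldhb*. In any transcript, coding or not, no stretch was shared in *Slc16a1*, *Hk2*, *Dlat*, *Pdk1*, *Pdk2*, *Pdk3* or *Pcx*. How reads that fit several genes were counted is not given in the sources used here, so levels of the genes with large shares are uncertain. Exons of *Gpi1*, *Pkm*, *Pfkfb2*, *Pdha1*, *Mpc1* and *Pfkm* also overlapped those of another gene over 10.7% to 23.1% of their bases, and without a stated strand setting such reads cannot be told apart.

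**Figure D2:**
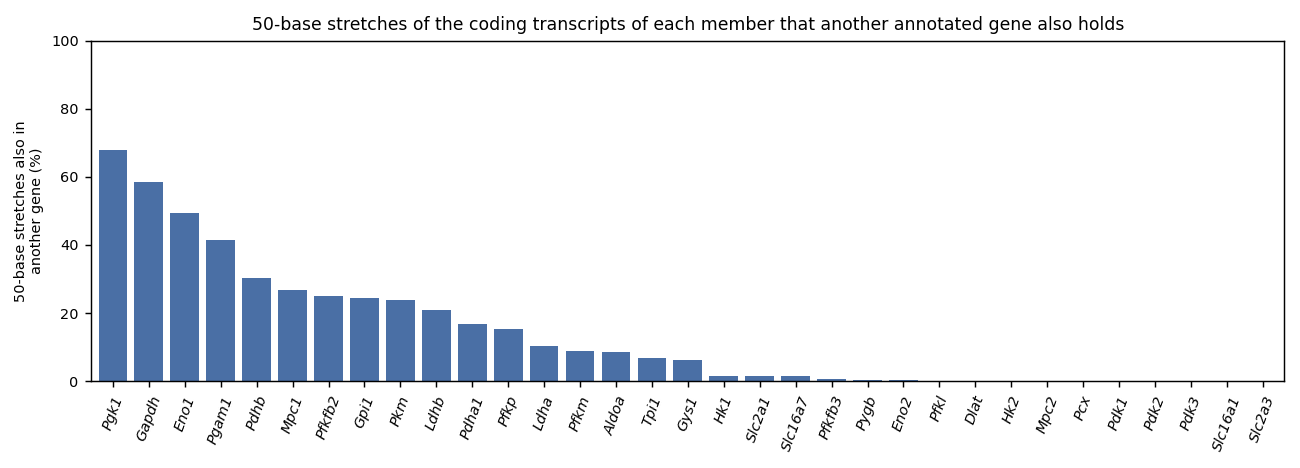
Percent of the 50-base stretches in the coding transcripts of each member (bars) that stand exactly in a transcript of another annotated gene, at the same locus or elsewhere. *Pgk1*, *Gapdh*, *Eno1* and *Pgam1* lead at 68.0%, 58.4%, 49.5% and 41.5%, and *Dlat*, *Hk2*, *Slc2a3* and the 3 *Pdk* genes are among those at 0.

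The first question was whether 2 days of Cort altered the members. No member passed *P*adj < 0.1 in edgeR's quasi-likelihood test, and the lowest *P*adj was 0.813. A single member, *Slc2a3*, had an unadjusted *P* below 0.05, of the 32 tested, where 5.97% of all 12309 genes did. DESeq2 gave the same counts of members. Over all genes 0.0650% passed *P*adj < 0.1 in edgeR and 0.439% in DESeq2, so edgeR called fewer genes. Of the members 18 had a higher and 14 a lower fitted level with Cort (56.2% higher, against 52.1% of all genes). The median log2 fold change was 0.02, equal to that of all genes. With the names of the normalized table's headers, 0 of 32 members had an unadjusted *P* below 0.05, against 4.87% of genes. Under those names no gene of the 12309 tested passed *P*adj < 0.1 in edgeR, against 8 with the names of the raw table. *Slc2a1* and *Slc2a3* were then at -0.13 and 0.03, on the other side of 0. The median size of a member's log2 fold change was 0.19, against 0.26 over all genes, and the 95% confidence intervals reached a median of 0.47 to each side, against 0.80.

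After 4 weeks of Cort, 31 members were tested, since *Hk2* and *Mpc1* were too low. None passed *P*adj < 0.1 in edgeR, where 0.0446% of 11211 genes did, and the lowest *P*adj was 0.944. *Dlat* and *Pfkp*, both higher with Cort, had an unadjusted *P* below 0.05, against 4.91% of all genes. DESeq2 gave 3 such members and none past *P*adj < 0.1, where 0.384% of all genes passed. Of the members 17 were higher and 14 lower (54.8% higher, against 51.9%). The median log2 fold change was 0.11, against 0.04 over all genes, and the intervals reached a median of 1.23 to each side, against 1.72.

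Few members separated the groups. At 2 days there was no overlap between vehicle and Cort for 1 of the 32 members, *Pkm*, against 6.63% of all genes. At 4 weeks this held for 3 of 31, *Gpi1*, *Pgam1* and *Dlat*, against 6.53%. With all 10 samples of a dataset no member separated in either, where 0.804% of genes did at 2 days and 0.919% at 4 weeks. In 17 of the 31 members tested in both datasets the fitted direction was the same (54.8%), as in 51.8% of all genes. Since the samples are bulk tissue, fewer cells of a type and less RNA per cell cannot be told apart in any of these values.

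**Figure D3:**
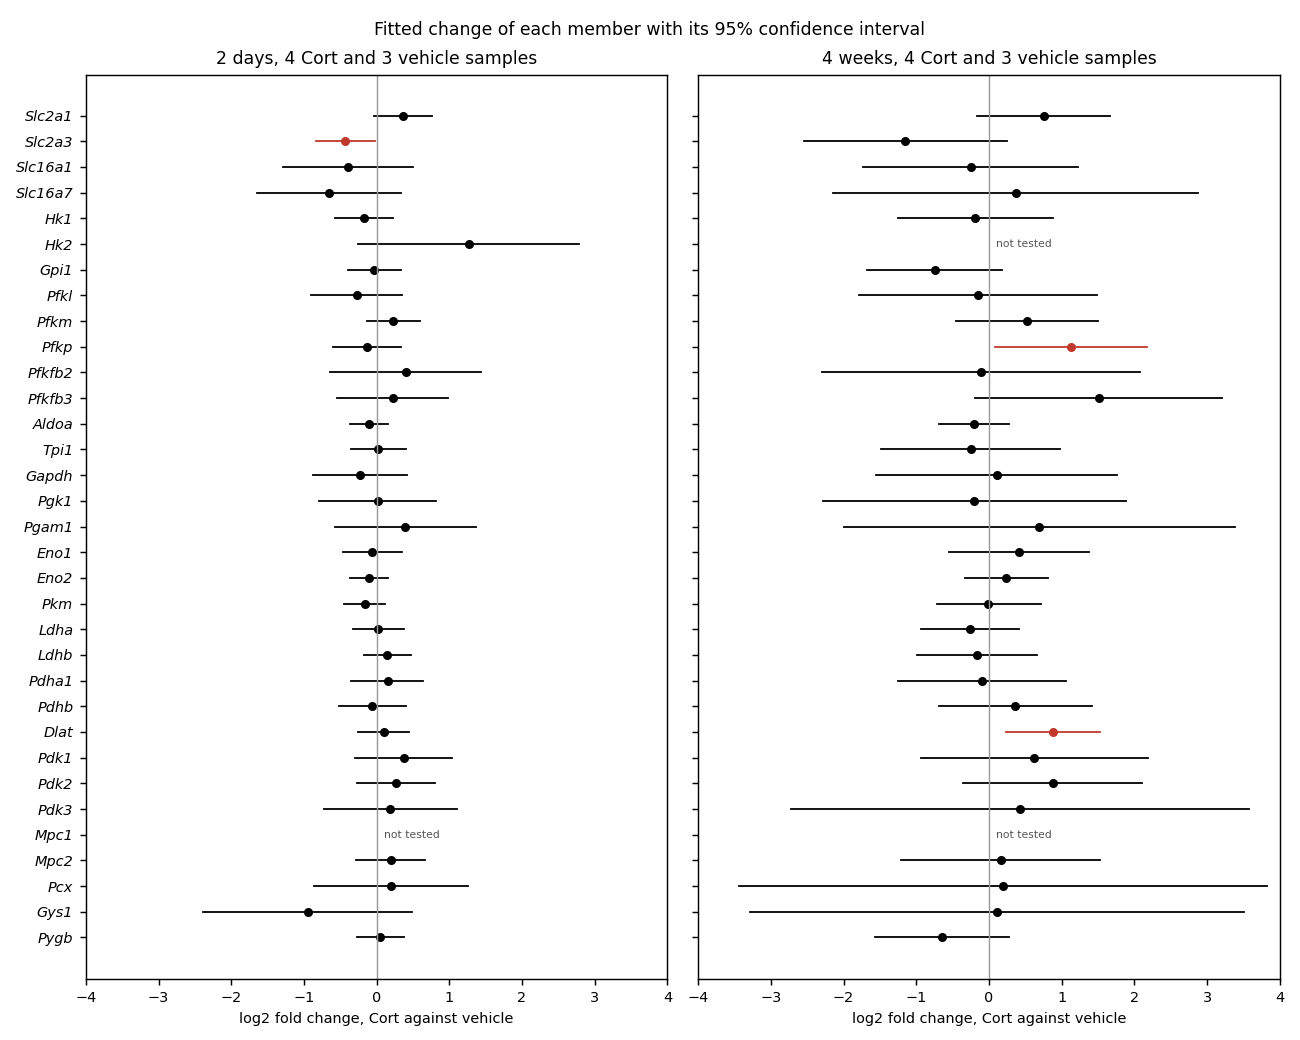
Log2 fold change of each member, Cort against vehicle, with its 95% confidence interval, from edgeR on the samples kept at 2 days (left) and 4 weeks (right). Red marks an unadjusted *P* below 0.05, which *Slc2a3* reached at 2 days and *Pfkp* and *Dlat* at 4 weeks, and none of these passed *P*adj < 0.1.

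The glucose transporters had fitted changes in opposite directions in both datasets. *Slc2a1* at 2 days was at 124, 105 and 87.0 CPM in vehicle samples C02, C04 and C05, and at 131, 149.5, 119.8 and 138 CPM in Cort samples C01, C03, C06 and C10. The lowest Cort sample lay below the highest vehicle sample. On the log2 scale the fitted change was 0.36 (SE 0.19, *P*adj = 0.865, edgeR). At 4 weeks *Slc2a1* was at 148, 54.3 and 98.1 CPM in vehicle samples C02 to C04 and at 234, 178, 90.7 and 175 CPM in Cort samples C07 to C10, with a log2 fold change of 0.75 (SE 0.43, *P*adj = 0.99). All Cort samples but C09 were above every vehicle sample. The log2 fold change was 0.46 without C03 and 1.16 without C02, and the unadjusted *P* was below 0.05 without C02 or without C09.

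*Slc2a3* fell short of the adjusted threshold in both datasets and was lower with Cort in both fits. At 2 days it was at 119.7, 167.5 and 166.5 CPM in vehicle samples C02, C04 and C05, and at 90.8, 123, 124 and 110.2 CPM in the Cort samples. Only vehicle sample C02 lay among the Cort samples. The fitted log2 fold change was -0.43 (SE 0.19, *P*adj = 0.813, edgeR), and the unadjusted *P*, below 0.05 in this fit, was above it without C01, C04, C05 or C10. The vehicle samples left out by the study, C07 and C09, were lower than every other sample of the dataset at 58.9 and 35.65 CPM, and with all 10 samples the log2 fold change was -0.07. At 4 weeks *Slc2a3* was at 139.7, 107 and 51.5 CPM in vehicle and at 67.5, 6.19, 59.3 and 47.95 CPM in Cort samples, where C08 stood far below the rest. Cort differed from vehicle by a log2 fold change of -1.15 (SE 0.66, *P*adj = 0.99), and -0.79 without C08. The *Slc2a1* and *Slc2a3* values at 2 days came with 4 of 11 neuron markers at unadjusted *P* below 0.05, all lower with Cort. Of the neuron markers 3 had a higher and 8 a lower fitted level, and they summed to 5108 to 5770 CPM in vehicle and 4603 to 5512 CPM in Cort samples. At 4 weeks 5 were higher and 6 lower, none with unadjusted *P* below 0.05. Their sums at 4 weeks did not overlap in the samples kept, at 3827 to 4083 CPM in vehicle and 4163 to 4597 CPM in Cort samples. With all 10 samples they overlapped, at 3210 to 4646 and 4163 to 4597 CPM. Of the endothelial and pericyte markers, 6 were higher and 8 lower at 2 days, none with unadjusted *P* below 0.05, and they summed to 347.9 to 402.3 CPM in vehicle and 262.4 to 473.3 CPM in Cort samples. At 4 weeks 9 of the 10 tested were higher with Cort, 2 of them with unadjusted *P* below 0.05, and the list summed to 309.8 to 645.7 CPM in vehicle and 405.5 to 848.1 CPM in Cort samples. Oligodendrocyte markers at 2 days were higher in 9 of 11, of which 1 passed *P*adj < 0.1 in edgeR, and summed to 797.3 to 858.6 CPM in vehicle and 849.3 to 1407 CPM in Cort samples. At 4 weeks 4 of the 10 tested were higher and 6 lower, 1 of these with unadjusted *P* below 0.05, and the list summed to 1240 to 1520 and 693.4 to 1467 CPM. Of the 10 astrocyte markers, 6 were higher and 4 lower at 2 days, and 7 higher and 3 lower at 4 weeks. Their sums are given with *Aldoc* below. No marker of these lists was at 0 in all samples of a group, and their part in the transporter values was not tested.

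Ratios of 6 gene pairs within a sample, which depend little on library scaling where counts are high, were compared in each dataset. Those of *Hk1* to *Hk2* and of *Mpc1* to *Mpc2* at 4 weeks rest on the constant of 0.5 CPM where *Hk2* or *Mpc1* is at 0. The log2 ratio of *Slc2a1* to *Slc2a3* at 2 days was 0.05, -0.67 and -0.93 in vehicle samples and 0.52, 0.28, -0.05 and 0.32 in Cort samples. The mean difference was 0.79 (exact 2-sided permutation *P* = 0.0571, adjusted over 12 tests 0.343). At 4 weeks the ratio was 0.08, -0.98 and 0.92 in vehicle and 1.79, 4.74, 0.61 and 1.86 in Cort samples, with a mean difference of 2.24 (exact permutation *P* = 0.0857, adjusted 0.343). With 3 against 4 samples the smallest *P* that this exact test can give is 0.029. A lone ratio at that value would not pass 0.1 once adjusted over 12 tests. With the samples kept, the adjusted result therefore cannot show that a ratio was unchanged. With all 10 samples the difference was 0.18 at 2 days (exact permutation *P* = 0.77) and 1.84 at 4 weeks (exact permutation *P* = 0.0556), and no ratio of the 12 had an adjusted *P* below 0.1 in either set of samples.

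**Figure D4:**
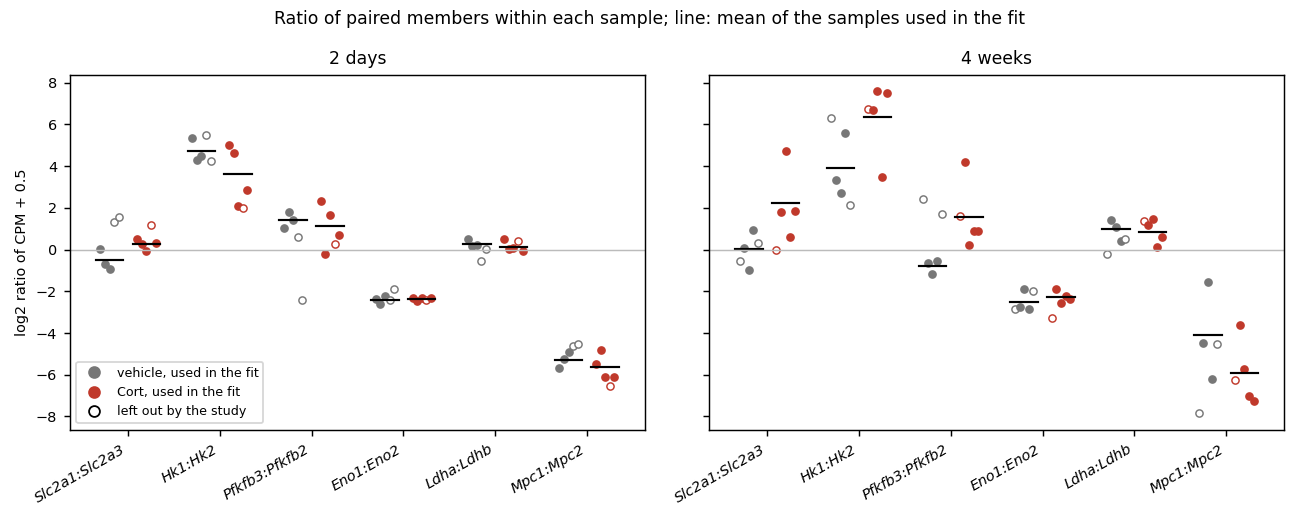
Log2 ratio of the CPM + 0.5 of paired members in each sample at 2 days (left) and 4 weeks (right), with lines at the mean of the samples used. Gray is vehicle, red is Cort and open points were left out by the study. *Slc2a1* to *Slc2a3* is higher in Cort samples on average in both panels, *Eno1* to *Eno2* and *Ldha* to *Ldhb* stay close, and no ratio passed its adjusted threshold.

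The monocarboxylate transporters, which move lactate and pyruvate across membranes, had wide intervals. At 2 days the log2 fold change was -0.39 for *Slc16a1* (MCT1), with an interval from -1.29 to 0.50, and -0.66 for *Slc16a7* (MCT2, the neuronal form), from -1.64 to 0.33. At 4 weeks the values were -0.25 and 0.37.

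In upper glycolysis, *Hk1*, the main hexokinase of brain, was at 120.4, 136 and 168 CPM in vehicle and at 119.5, 155, 121.5 and 104 CPM in Cort samples at 2 days, and the groups overlapped. Its log2 fold change was -0.17 (95% interval -0.57 to 0.23) at 2 days and -0.19 (-1.25 to 0.88) at 4 weeks. *Hk2*, the inducible hexokinase, was far lower, at 2.49, 6.47 and 6.91 CPM in vehicle and 3.24, 5.73, 27.9 and 13.9 CPM in Cort samples at 2 days. Cort samples C06 and C10, and the Cort sample left out, C08 at 20.5 CPM, were above every vehicle sample. This gave a log2 fold change of 1.27 (SE 0.73, *P*adj = 0.866, edgeR), 0.51 without C06, and 1.5 with all 10 samples, where the unadjusted *P* was below 0.05. At 4 weeks *Hk2* had 15, 26 and 4 counts in vehicle samples, and 0, 0, 6 and 0 counts in Cort samples C07 to C10, which was too low for the test within the dataset.

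*Gpi1* encodes glucose-6-phosphate isomerase. At 4 weeks it was at 130.2, 129 and 137 CPM in vehicle and at 59.6, 86.0, 42.8 and 128 CPM in Cort samples, so that all Cort samples lay below the vehicle samples, with C10 just beneath them. The log2 fold change was -0.75 (SE 0.44, *P*adj = 0.99, edgeR). The Cort sample left out, C06, was at 326.5 CPM and the vehicle samples left out were at 50.5 and 88.5 CPM, and with all 10 samples the log2 fold change turned to 0.26. At 2 days it was -0.03, with an interval from -0.39 to 0.33.

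Of the phosphofructokinases, *Pfkp*, the platelet form that is abundant in brain, was at 90.3, 36.2 and 36.3 CPM in vehicle and at 118, 122, 73.2 and 166 CPM in Cort samples at 4 weeks, where a single Cort sample, C09, fell within the vehicle range. On the log2 scale the fitted change was 1.13 (SE 0.49, *P*adj = 0.99, edgeR), and 1.73 without vehicle sample C02. The unadjusted *P* was below 0.05, but not without C03, C04, C08 or C10. The vehicle samples left out were the highest of the dataset, at 363 and 196 CPM, and with all 10 samples the log2 fold change was -0.21. At 2 days *Pfkp* was at 111, 86.7 and 111 CPM in vehicle and at 102, 112, 64.5 and 95.1 CPM in Cort samples, a log2 fold change of -0.13. *Pfkm*, the muscle form, had log2 fold changes of 0.23 and 0.52 at 2 days and 4 weeks, and *Pfkl*, the liver form, -0.27 and -0.15.

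Of the bifunctional regulators that set the level of fructose-2,6-bisphosphate, *Pfkfb3* was at 36.3, 30.2 and 28.3 CPM in vehicle and 58.6, 19.9, 38.8 and 27.8 CPM in Cort samples at 2 days, and the groups overlapped. In the 4 week dataset it was at 16.9, 9.65 and 18.4 CPM in vehicle and at 16.5, 35.7, 84.0 and 35.7 CPM in Cort samples. All Cort samples but C07 were above the vehicle samples, and the log2 fold change was 1.51 (SE 0.80, *P*adj = 0.99, edgeR), and 0.95 without C09. Vehicle sample C05, left out by the study, was at 122 CPM, and with all 10 samples the log2 fold change was -0.01. The ratio of *Pfkfb3* to *Pfkfb2* at 4 weeks did not overlap between the groups, at -0.64, -1.16 and -0.54 in vehicle and 4.22, 0.23, 0.90 and 0.91 in Cort samples (mean difference 2.34, exact permutation *P* = 0.0571, adjusted 0.343). Both left-out vehicle samples were above most Cort samples, at 2.41 and 1.7.

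**Figure D5:**
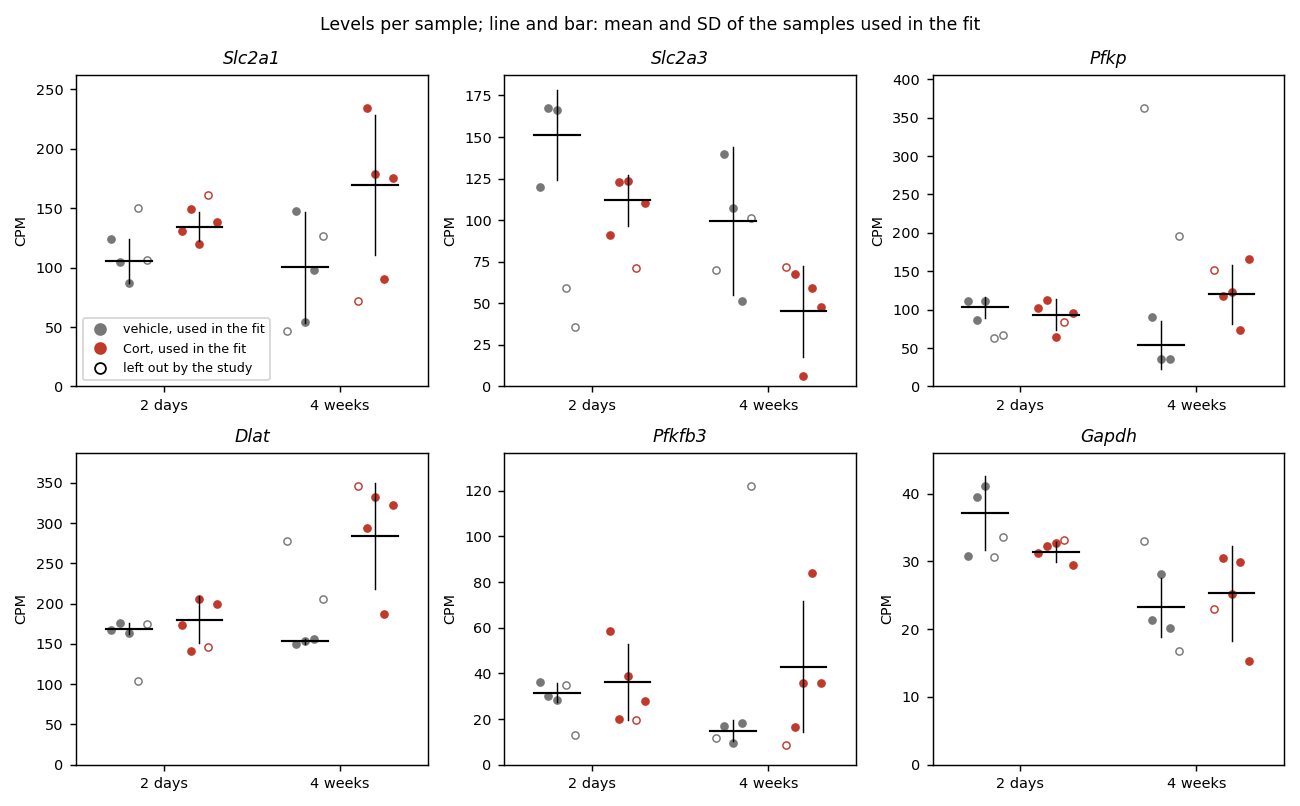
CPM per sample of *Slc2a1*, *Slc2a3*, *Pfkp*, *Dlat*, *Pfkfb3* and *Gapdh* at 2 days and 4 weeks. Filled points are the 3 vehicle (gray) and 4 Cort (red) samples used, with their mean and SD, and open points were left out by the study. At 4 weeks the 3 vehicle samples of *Dlat* sit between 149.5 and 156.3 CPM, below the Cort samples, while both left-out vehicle samples of *Pfkp* and 1 of those of *Pfkfb3* lie above every Cort sample.

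In lower glycolysis no member had an unadjusted *P* below 0.05 in either dataset, and the fitted log2 fold changes ran from -0.23 to 0.39 at 2 days and from -0.25 to 0.69 at 4 weeks. The most abundant members were the most tightly bounded: at 2 days *Aldoa* and *Eno2* both had a log2 fold change of -0.11 with an interval from -0.37 to 0.15. *Pkm*, pyruvate kinase, was at 303, 315 and 322 CPM in vehicle and at 294.5, 242, 302 and 272 CPM in Cort samples at 2 days. The groups did not overlap, although vehicle sample C02 and Cort sample C06 were nearly equal. The fitted log2 fold change was -0.16 (interval -0.45 to 0.12, *P*adj = 0.933, edgeR), and at 4 weeks it was -0.01 (-0.72 to 0.71). *Pgam1*, phosphoglycerate mutase, did not overlap at 4 weeks, at 4.73, 4.42 and 4.93 CPM in vehicle and 7.63, 10.48, 5.15 and 7.38 CPM in Cort samples. Its log2 fold change of 0.69 had an interval from -2.0 to 3.38, and the vehicle sample C01, left out by the study, was the highest of the dataset at 11.9 CPM. *Tpi1*, *Pgk1* and *Eno1* had log2 fold changes of 0.02, 0.02 and -0.06 at 2 days and -0.25, -0.20 and 0.41 at 4 weeks.

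*Gapdh* was at 30.9, 39.5 and 41.1 CPM in vehicle and at 31.2, 32.3, 32.7 and 29.4 CPM in Cort samples at 2 days. Vehicle sample C02 lay within the Cort range and the other vehicle samples above it. Cort differed from vehicle by a log2 fold change of -0.23 (SE 0.31, *P*adj = 0.953, edgeR), with an interval from -0.88 to 0.42, which in linear terms runs from 0.54-fold to 1.33-fold. At 4 weeks it was 0.11, from -1.55 to 1.76. Within groups *Gapdh* varied by an SD of 0.15 on the log2 scale at 2 days, and 5.07% of genes varied less. Of the other normalization genes of the study, the SD was 0.08 for *B2m*, 0.12 for *Actb*, 0.18 for *Hprt* and 0.33 for *Tbp* at 2 days. In the 4 week dataset it was 0.38 for *Gapdh*, 0.18 for *Hprt*, 0.30 for *Actb*, 0.53 for *B2m* and 0.61 for *Tbp*.

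The lactate dehydrogenase subunits had fitted changes near 0. *Ldha* was at 226, 200.3 and 200.1 CPM in vehicle and at 261, 196, 216 and 165 CPM in Cort samples at 2 days, and *Ldhb* was at 161, 179 and 175 CPM and at 182, 189, 207 and 174 CPM. The groups overlapped for both genes. This gave a log2 fold change of 0.02 (interval -0.33 to 0.37) for *Ldha* and 0.14 (-0.18 to 0.47) for *Ldhb*, and at 4 weeks it was -0.26 (-0.93 to 0.41) and -0.16 (-0.99 to 0.66). The log2 ratio of *Ldha* to *Ldhb* differed by -0.14 in each dataset (exact permutation *P* = 0.429 and 0.8).

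*Dlat*, which encodes the acetyltransferase core (E2) of pyruvate dehydrogenase, had the lowest *P* of any member. At 4 weeks it was at 149.5, 153.6 and 156.3 CPM in vehicle samples C02 to C04 and at 294, 333, 188 and 322 CPM in Cort samples C07 to C10. Every Cort sample was above the vehicle samples, which lay close together. The log2 fold change was 0.88 (SE 0.30, interval 0.24 to 1.52, *P*adj = 0.944, edgeR), or 1.84-fold, and it stayed between 0.79 and 1.03 when each sample was left out in turn. The left-out vehicle samples were at 278 and 206 CPM and the left-out Cort sample at 346 CPM, and with all 10 samples the log2 fold change was 0.63, with the unadjusted *P* still below 0.05. At 2 days *Dlat* was at 167, 176 and 163.5 CPM in vehicle and at 173, 142, 205 and 199.7 CPM in Cort samples, a log2 fold change of 0.10. Of the catalytic E1 subunits at 4 weeks, *Pdha1* was at -0.10 (-1.25 to 1.06) and *Pdhb* at 0.36 (-0.69 to 1.41). Both intervals include the *Dlat* value, and the difference between subunits was not tested.

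The kinases *Pdk1*, *Pdk2* and *Pdk3*, which phosphorylate and shut off pyruvate dehydrogenase, all had a higher fitted level with Cort in both datasets, and none passed a test. *Pdk2*, the most abundant of them, was at 65.4, 67.0 and 137 CPM in vehicle and at 87.9, 95.3, 127 and 119 CPM in Cort samples at 2 days, where vehicle sample C05 was the highest of all. On the log2 scale the fitted change was 0.26 (SE 0.26, *P*adj = 0.942, edgeR), and 0.71 without C05, where the unadjusted *P* was below 0.05. In the 4 week dataset it was at 57.8, 15.7 and 69.9 CPM in vehicle and 89.7, 64.8, 139 and 60.25 CPM in Cort samples, with a log2 fold change of 0.88 (-0.36 to 2.11, *P*adj = 0.99, edgeR), which was 0.46 without C03 and 0.57 without C09. For *Pdk1* and *Pdk3* the values were 0.37 and 0.19 at 2 days, and 0.62 (-0.94 to 2.19) and 0.43 (-2.72 to 3.58) at 4 weeks. *Pdk1* at 4 weeks was at 57.5, 56.3 and 21.5 CPM in vehicle and 17.95, 168, 23.7 and 70.4 CPM in Cort samples. Its median was lower with Cort, at 47.05 against 56.3 CPM, and the high Cort sample was C08. *Pdk3* had 0 counts in Cort sample C09 at 4 weeks. *Pdk4*, the kinase known as a glucocorticoid target in muscle, was among the other genes of the pathway. Its log2 fold change at 2 days was -0.74 (*P*adj = 0.948, edgeR), and it was too low to test at 4 weeks.

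Pyruvate enters mitochondria through a carrier of MPC1 and MPC2 subunits. *Mpc1* had 2 to 18 counts per sample at 2 days, and at 4 weeks 0 to 5 counts in all samples but vehicle C03, which had 50. *Mpc2* had log2 fold changes of 0.20 (-0.28 to 0.67) and 0.16 (-1.21 to 1.53) at 2 days and 4 weeks. *Pcx*, pyruvate carboxylase, an enzyme of astrocytes in brain, was at 0.20 and 0.19, with an interval at 4 weeks from -3.44 to 3.83. The glycogen enzymes were *Gys1*, glycogen synthase, at -0.95 (-2.39 to 0.48) and 0.11, and *Pygb*, the brain glycogen phosphorylase, at 0.05 (-0.27 to 0.37) and -0.65 (-1.57 to 0.27).

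Whether the Cort effect differed between the datasets was tested in a joint fit of the 14 samples kept. No member passed *P*adj < 0.1 in edgeR (lowest 0.725) or DESeq2, where 0.0157% and 0.305% of 12777 genes did. An unadjusted *P* below 0.05 was reached by 3 of 32 members in edgeR, against 6.49% of genes, and by the same 3 in DESeq2. These were *Pfkp*, with an effect larger by 1.26 at 4 weeks (SE 0.52, *P*adj = 0.725), *Dlat*, larger by 0.78 (SE 0.32, *P*adj = 0.726), and *Hk2*. *Hk2* was too low for the 4 week test and entered the joint fit through the 2 day samples, so its fitted difference rests on Cort samples at 0 counts, is no bound and is not given. With all 20 samples the *Pfkp* difference was -0.26 and the *Dlat* difference 0.50, the members with an unadjusted *P* below 0.05 were *Hk2* and *Eno2*, and 0 of 12512 genes passed *P*adj < 0.1 in edgeR.

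Between vehicle groups, 23 of 32 members had a lower fitted level at 4 weeks than at 2 days, as did 6136 of 12777 genes. The median log2 difference was -0.38, against 0.04 over all genes. *Aldoa* alone had an unadjusted *P* below 0.05, at -0.45 (SE 0.17, *P*adj = 0.29, edgeR), where 12.1% of genes did. No member passed *P*adj < 0.1, against 1.33% of genes. DESeq2 likewise gave none, against 5.02% of genes, with 2 members at unadjusted *P* below 0.05. The members with the next lowest *P* were *Hk1* at -0.67, *Pfkp* at -0.76, *Tpi1* at -0.82 and *Mpc2* at -0.83. With all 20 samples 6 of 32 members had an unadjusted *P* below 0.05 and 2 passed *P*adj < 0.1 (6.25%), where 772 of 12512 genes did (6.17%). Treatment time here cannot be told apart from age, feeding state, sectioning and sequencer. Marker sums also differed between the vehicle samples kept. Neuron markers summed to 5108 to 5770 CPM at 2 days and 3827 to 4083 at 4 weeks, and astrocyte markers to 5148 to 5624 and 3271 to 3336. Tanycyte markers were higher at 4 weeks, at 166.4 to 264.9 and 759.5 to 1171 CPM, as were oligodendrocyte markers, at 797.3 to 858.6 and 1240 to 1520. Their part in the member levels was not tested.

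The median member varied less than the median gene, in a comparison that was not matched for level. Some members varied more than most genes: 89.8% of genes varied less than *Hk2* at 2 days, and 96.4% less than *Pcx* at 4 weeks. The median SD within groups, on the log2 scale, was 0.24 over the members and 0.46 over all genes at 2 days, and 0.64 and 0.95 at 4 weeks. The steadiest at 2 days were *Eno1* (0.09), *Ldhb* (0.10), *Pkm* (0.11) and *Eno2* (0.12), and the most variable was *Hk2* (1.10). At 4 weeks *Aldoa* (0.14) was steadiest, and *Pcx* (2.41), *Gys1* (2.33), *Pdk3* (2.02) and *Pfkfb2* (1.99) varied most.

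Around the members, 112 other genes of carbohydrate metabolism were listed by pathway, of which 91 were tested at 2 days and 85 at 4 weeks. At 2 days 45 had a higher and 46 a lower fitted level, with a median log2 fold change of -0.00, and at 4 weeks 48 and 37, with a median of 0.07. None passed *P*adj < 0.1 in edgeR. With unadjusted *P* below 0.05 there were 3 higher and 2 lower of 91 at 2 days, and 3 higher and none lower of 85 at 4 weeks. Over all genes 5.97% had such a *P* at 2 days and 4.91% at 4 weeks. The 16 citrate cycle genes were all tested and none had an unadjusted *P* below 0.05, with medians of -0.03 and -0.02. None of the other pyruvate dehydrogenase, gluconeogenesis, pentose phosphate or shuttle genes did either.

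The lowest *P* among these was that of *Ugp2*, which makes UDP-glucose for glycogen. At 2 days it was at 98.0, 98.5 and 129 CPM in vehicle and at 67.1, 60.3, 64.5 and 53.7 CPM in Cort samples. These did not overlap, as for 6.63% of all genes. The fitted log2 fold change was -0.81 (SE 0.22, *P*adj = 0.443, edgeR), and -0.76 with all 10 samples, which overlapped. At 4 weeks it was 1.01 (*P*adj = 0.99), or 0.54 with all 10 samples, and the difference between datasets was 1.83 (*P*adj = 0.714). *Slc2a13*, a proton myo-inositol cotransporter of the same family as the glucose transporters, was at 105.2 to 162.1 CPM in vehicle and 67.35 to 98.06 CPM in Cort samples at 2 days, and at 54.18 to 103.7 and 111.6 to 221.6 CPM at 4 weeks. Neither dataset showed an overlap, as for 6.63% of all genes at 2 days and 6.53% at 4 weeks, and both did with all 10 samples. Cort differed from vehicle by a log2 fold change of -0.62 at 2 days (*P*adj = 0.639, edgeR), or -0.34 with all 10 samples, and 0.84 at 4 weeks (*P*adj = 0.99), a difference of 1.47 (*P*adj = 0.714).

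*Aldoc*, the aldolase of astrocytes, was the gene of these lists with an unadjusted *P* below 0.05 in both datasets. At 2 days it was at 1135, 1002 and 1098 CPM in vehicle and 1531, 1246, 1287 and 1344 CPM in Cort samples, and at 4 weeks at 679, 736 and 711 CPM and at 1347, 1116, 918 and 845 CPM. The groups overlapped in neither dataset, where 6.63% of all genes did not overlap at 2 days and 6.53% at 4 weeks. This gave a log2 fold change of 0.34 at 2 days (SE 0.10, *P*adj = 0.538, edgeR) and 0.56 at 4 weeks (SE 0.20, *P*adj = 0.98), and with all 10 samples 0.21 and 0.50. At 4 weeks the groups stayed apart with all 10 samples, at 644 to 801 CPM in vehicle and 845 to 1347 CPM in Cort, as they did for 0.919% of all genes. The 10 astrocyte markers, of which none was at 0 in all samples of a group, summed to 5148 to 5624 CPM in vehicle and 4403 to 6431 CPM in Cort samples at 2 days. At 4 weeks they summed to 3271 to 3336 and 3586 to 4830 CPM, which did not overlap, with 2 of 10 at unadjusted *P* below 0.05, both higher, and with all 10 samples the sums overlapped, at 2278 to 4635 and 3586 to 5294 CPM. Their part in the *Aldoc* values was not tested.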

How the data were processed

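RNA was extracted from laser-captured ARC, and 2 ng was amplified with the Ovation RNA-seq System V2 and read from a single end over 50 bp. Per the labels and methods, the authors mapped reads to GRCm38 with Rsubread and deposited a raw count per gene from featureCounts. The annotation release, strand and multiple-mapping settings are not given in the sources used here. The signal values deposited by the authors are counts divided by a DESeq2 size factor over the 7 samples kept, and served only to check sample names. At 2 days, 5 of 7 normalized columns held the raw counts of a differently named sample. Under those headers 4 samples would change treatment. Names of the raw table were used, since its totals followed the order of the study's mapped reads, and the other naming was fitted as an alternative added after seeing the data. The authors' own fold changes and p-values were not used.

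Genes were filtered (filterByExpr), scaled by TMM and tested 2-sided with edgeR 4.0.16 (quasi-likelihood) in R 4.3.3, with Benjamini-Hochberg adjustment over all genes tested and calls at *P*adj < 0.1. The samples kept were those of the study. Alternatives were DESeq2 1.42.0, limma 3.58.1 (voom with sample weights), upper quartile scaling, other count filters (none, or 10 counts in every sample), all samples and each sample left out. Ratios carried 0.5 CPM (alternative 0.1 CPM) and an exact permutation test. The fits were also run on simulated data with planted changes far larger than the median change of a member, so small changes were not covered. CPM per kb used the length of all annotated exons of a gene in GENCODE M21, and stretches and primers were matched to its transcripts. Python 3.11.15 with pandas 2.3.3, numpy 2.4.6 and matplotlib 3.10.9 was used for sequences and figures. Total counts were 1065776 to 5748223 per sample. Floors cover counting error only, as amplified reads are not independent molecules.

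The members, lists, named genes and tests were chosen with earlier results of these data known. Given in full were members with an unadjusted *P* below 0.05 (within a dataset or between datasets) or no overlap between the groups kept, and, whatever their values, *Slc2a1*, *Slc2a3*, *Hk1*, *Pfkfb3*, *Gapdh*, *Pkm*, *Ldha*, *Ldhb* and *Pdk2*, and genes of the pathway lists with *P* below 0.01, at most 5 per dataset. Their fits with all samples and between datasets were added after seeing the data. *Pdk4* was named after its value was seen. The sources used here do not say whether a sample was 1 mouse or a pool, so *P* values measure the spread between samples, which may be technical.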

Additional observations from a re-analysis of the deposited data

Results flagged for a closer look

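In 14 of 132 groups of 5 samples, a sample of a member stood apart from the other 4 by more of the group's range than Dixon's 95% limit allows, and chance alone flags about 1 in 20 groups of independent, normally distributed values. The groups here share libraries, and several lie near 0 CPM. The number given is the gap to the nearest sample as a share of the range.

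At 2 days, vehicle sample C09 was high for *Pfkfb2* (0.780, 72.4 CPM against 22.5 for the next) and *Eno1* (0.718, 141.5 against 103.7 CPM). Vehicle sample C07 was low for *Dlat* (0.824, 104.5 against 163.5 CPM). The study left out both samples. Cort sample C06, which was kept, was high for *Pfkm* (0.716, 191 against 159.6 CPM).

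Among 4 week vehicle samples, C05 was high for *Pfkfb3* (0.922, 122 against 18.4 CPM), and C01 was low for *Aldoa* (0.727, 106.5 against 379 CPM) and high for *Pgam1* (0.779, 11.9 against 4.93 CPM), both left out by the study. Among samples kept, C04 was high for *Ldhb* (0.721, 159 against 107 CPM) and *Pcx* (0.806, 16.6 against 3.22 CPM), C03 for *Mpc1* (0.95, 20.1 against 1.01 CPM) and C02 for *Gys1* (0.966, 23.3 against 0.804 CPM). Among 4 week Cort samples, C09 was high for *Hk2* (0.796, 3.09 against 0.630 CPM) and *Ldhb* (0.793, 135.5 against 102.7 CPM), and C07 for *Mpc1* (0.769, 1.03 against 0.238 CPM).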

How the results depend on the processing

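No paired analysis was possible because the columns of the count tables carry no replicate numbers and match only the groups of the labels. The study also describes no pairing of mice, which were housed singly and assigned to groups of equivalent starting weight. The count of members past *P*adj < 0.1 for Cort against vehicle was 0 in both datasets under every alternative run, by edgeR, DESeq2 and voom. Members with an unadjusted *P* below 0.05 numbered 2 with all 10 samples and 0 with voom weights at 2 days, and 1 with all 10 samples at 4 weeks. Leaving out each sample in turn gave 0 to 2 at 2 days and 1 to 3 at 4 weeks. No member separated the groups with all 10 samples (0 in each dataset). Between vehicle groups the number at *P* below 0.05 was 2 with DESeq2, 3 with upper quartile scaling and 6 with all 20 samples, of which 2 passed *P*adj < 0.1, as did 772 of 12512 genes. With the 2 day names of the normalized table's headers, added after seeing the data, it was 0 at 2 days.

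Some fold changes that turned sign were near 0 in the main comparison, but some of the largest turned too with all samples. The cause was not tested. Of the larger ones, the main 4 week fits were 1.13 for *Pfkp*, 1.51 for *Pfkfb3* and -0.75 for *Gpi1*. The main differences between datasets were 1.26 for *Pfkp* and 1.30 for *Pfkfb3*, and those between vehicle groups -0.76 and -0.92. At 2 days with all 10 samples the fold changes that turned were *Gpi1* (0.03, and 0.02 with voom weights), *Pfkp* (0.07), *Ldha* (-0.00) and *Ldhb* (-0.17). With the other 2 day names they were *Slc2a1* (-0.13), *Slc2a3* (0.03), *Pfkfb3* (-0.15), *Pgam1* (-0.20), *Pkm* (0.08), *Ldha* (-0.12) and *Ldhb* (-0.03). With all 10 samples at 4 weeks they were *Hk1* (0.47), *Gpi1* (0.26), *Pfkp* (-0.21), *Pfkfb3* (-0.01), *Pkm* (0.22) and *Ldha* (0.13), with voom weights *Hk1* (0.18), *Gapdh* (-0.04) and *Pkm* (0.06), and with no filter *Pkm* (0.00). Leaving out 1 sample at 2 days, *Gpi1* ran from -0.12 to 0.07, *Pfkp* from -0.24 to 0.01, *Pfkfb3* from -0.11 to 0.42 and *Ldha* from -0.10 to 0.11. At 4 weeks *Pkm* ran from -0.25 to 0.26, *Hk1* from -0.39 to 0.12 and *Ldhb* from -0.32 to 0.11. The difference between datasets turned for *Hk1* with no filter (0.01), and with all 20 samples for *Hk1* (0.76), *Gpi1* (0.21), *Pfkp* (-0.26), *Pfkfb3* (-0.21), *Pgam1* (-0.08), *Ldha* (0.14) and *Ldhb* (0.09). Between vehicle groups *Slc2a1* (-0.02) and *Dlat* (-0.09) turned with upper quartile scaling, and *Slc2a1* (-0.13), *Hk2* (-0.23), *Pfkp* (0.85), *Pfkfb3* (0.47) and *Ldha* (-0.13) with all 20 samples. With all 10 samples the ratio differences turned for *Pfkfb3* to *Pfkfb2* (0.47), *Eno1* to *Eno2* (-0.07) and *Ldha* to *Ldhb* (0.12) at 2 days, and for *Eno1* to *Eno2* (-0.00) and *Ldha* to *Ldhb* (0.29) at 4 weeks. With 3 vehicle samples and intervals as wide as those given, smaller changes were not detectable.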
